A study of Mus musculus with 10 samples.

Results

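The carboxylesterases described here are 10 liver genes of the mouse: Ces1c, Ces1d, Ces1e, Ces1f, Ces1g, Ces2a, Ces2c, Ces2e, Ces3a and Ces3b. They were chosen by name, with the measured difference between cachectic and non-cachectic livers already known, so that difference is given below as a description without a p-value. They are 10 of the 43629 genes in the count table, and all 10 passed the filter on low counts together with 14143 genes in all. The livers came from male KL mice, a Cre-inducible lung cancer model that is homozygous for a floxed allele of the tumour suppressor Lkb1 and was backcrossed to FVB. Lung tumours had been started in adults by intranasal adenovirus that expressed Cre from the CMV promoter, which was delivered to the airway, not to the liver, and was not restricted to 1 cell type. All 10 mice therefore carried tumours, and no tumour-free liver is part of the comparison. Mice were called cachectic (CACS) or not (NCACS) by their weight loss from the peak. The 5 NCACS mice (numbers 11 to 15) had weight changes of -4, -8, -11, -3 and -14%. The 5 CACS mice (numbers 16 to 20) had weight changes of -32, -29, -33, -30 and -29%. Neither the age at collection of each mouse nor a preparation or sequencing batch is given in the labels. Each mouse gave 1 liver library, and the depth was 31459179 to 40746178 counts per library.

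Carboxylesterases are serine hydrolases of the endoplasmic reticulum that cut ester, amide and thioester bonds. In hepatocytes they convert ester drugs and pesticides, and several of them also hydrolyse stored triacylglycerol, cholesteryl esters or retinyl esters. The Ces1 enzymes include lipid hydrolases that feed the assembly of very-low-density lipoprotein, the Ces2 enzymes include acylglycerol hydrolases of liver and intestine, and the Ces3 enzymes are abundant in mouse liver. Most family members end in a short signal of the His-X-Glu-Leu type, which the KDEL receptors recognise to return a protein to the endoplasmic reticulum, whereas a member without such an end can leave the cell.

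All 10 genes lie on chromosome 8 of GRCm38, in 2 groups. The Ces1 genes are on the reverse strand, with Ces1c (ENSMUSG00000057400) at 93099015 to 93131283, Ces1d (ENSMUSG00000056973) at 93166068 to 93197838, Ces1e (ENSMUSG00000061959) at 93201218 to 93229619, Ces1f (ENSMUSG00000031725) at 93256236 to 93279747 and Ces1g (ENSMUSG00000057074) at 93302369 to 93337308. The others are on the forward strand, with Ces2a (ENSMUSG00000055730) at 104734003 to 104741634, Ces2c (ENSMUSG00000061825) at 104847068 to 104854483, Ces2e (ENSMUSG00000031886) at 104926260 to 104934672, Ces3a (ENSMUSG00000069922) at 105048601 to 105058413 and Ces3b (ENSMUSG00000062181) at 105083753 to 105093929. All are annotated as protein-coding. Their coding sequences were 1665 to 1716 bases long, and the identity of coding bases was 72.4 to 81.6% within Ces1, 82.4 to 83.6% within Ces2, 95.3% between Ces3a and Ces3b, and 53.8 to 59.2% between subfamilies.

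The last 30 coding bases show which members end in codons of the His-X-Glu-Leu type. They are printed 5′ to 3′ from the annotated transcripts, with the last 4 codons before the stop codon in capitals, for the 2 most abundant members (Ces1c and Ces3a), the lipid hydrolase Ces1d and the 2 members with the largest differences (Ces2c and Ces2e).
Ces1c: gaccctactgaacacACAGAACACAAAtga
Ces1d: ccatcccacagggaaCATGTTGAGCTCtga
Ces2c: gcttctcaggacaagCACAGGGAGCTTtag
Ces2e: gggtctcaggagaggCACAAAGAGTTGtag
Ces3a: agaagcaggaaagttCCAGAGGAGCTCtga
Codons for a His-X-Glu-Leu end were found in 7 of the 10 members. Ces1c, Ces3a and Ces3b did not have them, and the 30 bases of Ces3b were the same as those of Ces3a. Other forms of the signal were not searched for, and retention of the proteins was not tested. Ces1c encodes the carboxylesterase of mouse plasma, and its coding end lacks the 4 codons.

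The codons around the active-site serine were found in all 10 members. The Gly-X-Ser-X-Gly motif of serine hydrolases began between codons 219 and 230. It is printed in capitals, 5′ to 3′, for 1 member of each subfamily and for Ces2c.
Ces1c: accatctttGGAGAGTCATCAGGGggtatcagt
Ces2a: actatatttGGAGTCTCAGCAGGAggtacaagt
Ces2c: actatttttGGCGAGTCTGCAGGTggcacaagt
Ces3a: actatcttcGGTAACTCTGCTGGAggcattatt
The codons between the glycines differ among these 4 genes, and the frame of glycine, serine and glycine is present in each.

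Because related genes can share reads, stretches of 100 bases were compared across all annotated transcripts. Ces1d, Ces1e, Ces1f, Ces1g and Ces2e shared none with another gene. Ces2c shared 15.98% of its stretches, Ces2a 10.7%, Ces3a 9.09%, Ces3b 7.68% and Ces1c 1.39%. Ces3a and Ces3b shared 177 stretches with each other, and how reads that match both were counted is uncertain. Ces2c shared 294 stretches with the pseudogene Ces2d-ps, which held at most 23 counts in any liver.

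Measured per length, Ces1c and Ces3a stood far above the other members in NCACS livers. Their levels, in TMM-normalized reads scaled to a common library size (CPM) per kilobase of merged exons, were 1008 ± 242 for Ces1c and 994 ± 170 for Ces3a (SD, n = 5 here and for every mean below). Ces1c and Ces3a did not differ beyond their spread in NCACS livers, since Ces1c was the higher of the pair in 3 of 5 livers. Ces1d followed at 254 ± 124, below Ces3a in 5 of 5 livers. Ces2a at 175 ± 54.3, Ces1f at 168 ± 60.6, Ces3b at 160 ± 42.4, Ces1e at 135 ± 69.9, Ces1g at 102 ± 37.8 and Ces2e at 67.3 ± 17.3 CPM per kilobase formed a graded series. Neighbours in that order were taken to differ when their mean log2 ratio within livers exceeded its SD and all 5 livers had the same order. By that rule no neighbours from Ces1d down to Ces2e differed. The log2 ratio of Ces1g to Ces2e exceeded its SD (0.525 against 0.353), but Ces1g was the higher in 4 of 5 livers. Ces2c was the lowest member, at 5.17 ± 1.94 CPM per kilobase, and lay below Ces2e in 5 of 5 NCACS livers.

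In CACS livers the same 2 genes led, but Ces1c was above Ces3a in 5 of 5 livers, at 1409 ± 307 against 731 ± 242 CPM per kilobase. Ces1d was next at 440 ± 276, and it was below Ces3a in 5 of 5 livers. Ces3b at 184 ± 60.8, Ces2a at 154 ± 30.4, Ces1f at 135 ± 62.4, Ces1e at 118 ± 43.2 and Ces1g at 92.7 ± 21.1 CPM per kilobase followed. By the same rule no neighbours from Ces1d down to Ces1g differed, with Ces1d above Ces3b in 4 of 5 livers. Ces2e at 30.7 ± 10.5 was below Ces1g in 5 of 5 livers, and Ces2c at 0.519 ± 0.260 was again the lowest in 5 of 5.

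**Figure D1:**
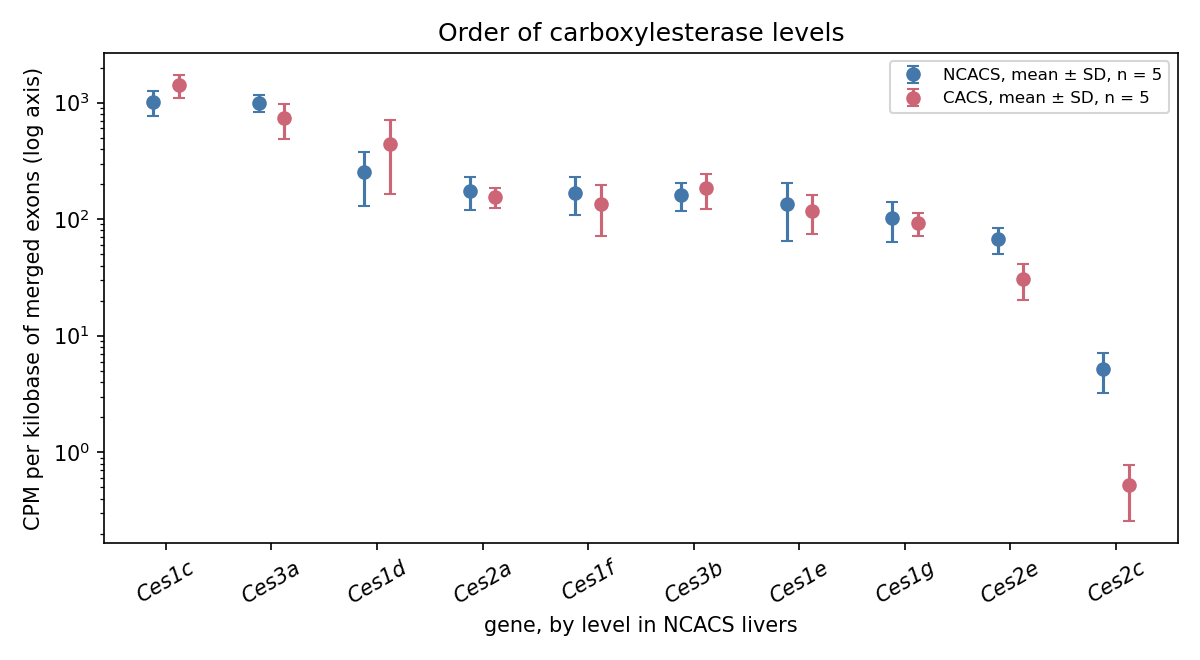
Mean level of each carboxylesterase gene per group (CPM per kilobase of merged exons, log axis; bars are 1 SD, n = 5), in the order of the NCACS means. Ces1c and Ces3a lead in both groups and Ces2c is lowest, at 5.17 CPM per kilobase in NCACS and 0.519 in CACS livers.

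Together the 10 genes took a like share of all counts in the 2 groups, 0.764 ± 0.146% in NCACS and 0.808 ± 0.160% in CACS livers. The makeup of that share differed more than its size. Of the counts on the 10 genes, the 5 Ces1 genes held 51.8 ± 8.26% in NCACS and 64.7 ± 6.62% in CACS livers. The Ces2 genes held 7.81 ± 0.997% and 5.76 ± 1.40%, and the Ces3 genes held 40.4 ± 8.98% and 29.6 ± 6.77%. The ranges of the Ces1 share overlapped, at 40.4 to 59.8% in NCACS and 55.2 to 73.6% in CACS livers.

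Per gene, 3 members had a higher and 7 a lower fitted level in CACS livers, against 6982 higher and 7161 lower over all 14143 genes tested. The median difference of the members (CACS minus NCACS, log2) was -0.19, against -0.01 over all genes tested. Ces2c and Ces2e, both lower, were the members past the 0.05 threshold on adjusted p-values (edgeR), which 3.80% of all genes tested passed and 1.92% passed as lower. Ces2c was the member whose groups did not overlap, against 7.07% of all genes in either direction and 3.13% as lower. Because the members were chosen with this contrast known, nothing is read from these counts. Values per liver are given below in CPM, in the order of mice 11 to 15 for NCACS and 16 to 20 for CACS, and compare the groups for 1 gene at a time. In whole liver, fewer cells of a type and less RNA per cell cannot be told apart.

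**Figure D2:**
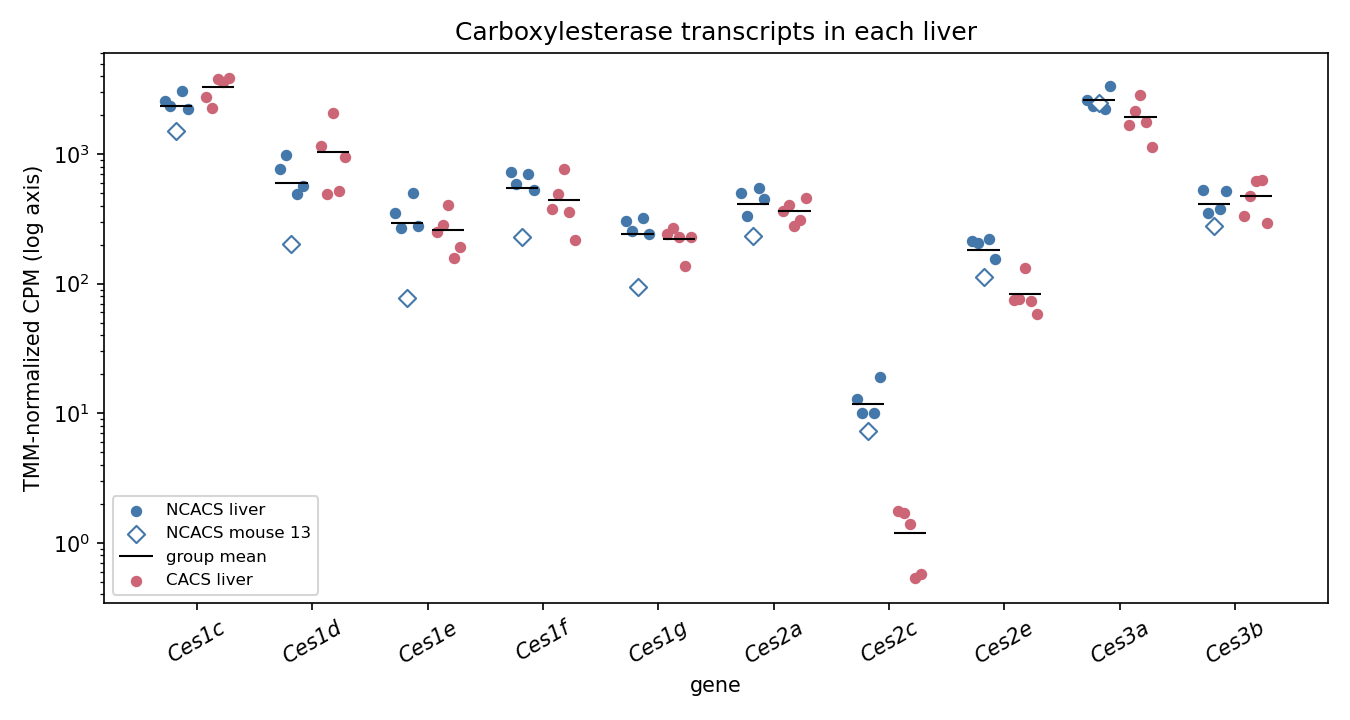
TMM-normalized CPM (log axis) of the 10 genes in each liver, with NCACS livers in blue, CACS livers in red, NCACS mouse 13 as an open diamond and group means as lines. The groups are apart for Ces2c, at 7.31 to 19.1 against 0.535 to 1.75 CPM, and overlap for the other 9 genes.

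Of the Ces2 enzymes, Ces2c, an acylglycerol and drug hydrolase, had the largest difference of the 10 genes. Its levels were 12.8, 10.1, 7.31, 10.1 and 19.1 CPM in NCACS livers and 1.75, 1.71, 1.40, 0.535 and 0.573 CPM in CACS livers. These came from 433, 405, 226, 335 and 617 counts in NCACS and 70, 65, 43, 19 and 20 counts in CACS libraries. Every CACS liver was below every NCACS liver, and CACS mice 19 and 20 were lowest. The means were 11.9 ± 4.46 and 1.19 ± 0.599 CPM, which is 9.95-fold higher in NCACS, with a log2 fold change of -3.31 (standard error 0.378). Ces2c is thus a low-level member in these livers, and its difference concerns few transcripts beside those of Ces1c and Ces3a.

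Ces2e, which lies beyond the pseudogene Ces2d-ps from Ces2c and also hydrolyses acylglycerols and drugs, was the second of the 2. Its levels were 214, 206, 112, 221 and 156 CPM in NCACS livers and 75.3, 76.4, 132, 72.9 and 58.1 CPM in CACS livers. A single CACS liver, mouse 18 at 132 CPM, lay above the lowest NCACS liver, mouse 13 at 112 CPM, and the other 4 CACS livers were below all NCACS livers. The means were 182 ± 46.6 and 82.9 ± 28.4 CPM, 2.19-fold higher in NCACS, with a log2 fold change of -1.13 (standard error 0.237). With 1 mouse left out, the log2 fold change of Ces2e stayed between -1.36 and -1.03. It was no longer past the adjusted threshold in 6 of 10 fits, those without NCACS mouse 11, 12 or 14 or CACS mouse 16, 19 or 20. Because the members were chosen with this contrast known, nothing is read from that count.

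Ces2a, a triacylglycerol and lysophospholipid hydrolase, showed no such gap. It was at 503, 331, 234, 545 and 450 CPM in NCACS livers and at 366, 403, 280, 310 and 459 CPM in CACS livers. All 5 CACS livers lay within the range of the other group, and the log2 fold change was -0.18 (standard error 0.223), or -0.06 without NCACS mouse 14. The 3 Ces2 members thus ranged from a difference within the spread to the largest of the 10 genes, although their coding sequences are at least 82.4% identical.

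The upstream sequences of the 3 Ces2 members are shown as a description, and no link between them and the differences between groups was tested. Each line gives the 250 bases before the annotated start on the forward strand of GRCm38.p6, 5′ to 3′, from RefSeq: Ces2a at chr8:104733753-104734002, Ces2c at chr8:104846818-104847067 and Ces2e at chr8:104926010-104926259. Capitals mark AGGTCA, a half-site of nuclear receptors.
Ces2a: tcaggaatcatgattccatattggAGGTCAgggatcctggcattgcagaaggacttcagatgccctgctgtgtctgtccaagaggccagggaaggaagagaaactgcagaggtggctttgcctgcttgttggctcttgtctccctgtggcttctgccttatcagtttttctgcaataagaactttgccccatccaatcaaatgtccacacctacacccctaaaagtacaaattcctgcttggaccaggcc
Ces2c: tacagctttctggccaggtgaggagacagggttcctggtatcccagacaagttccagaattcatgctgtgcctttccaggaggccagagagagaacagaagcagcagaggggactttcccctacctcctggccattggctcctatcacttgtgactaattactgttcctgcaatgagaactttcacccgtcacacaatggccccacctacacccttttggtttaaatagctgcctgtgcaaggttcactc
Ces2e: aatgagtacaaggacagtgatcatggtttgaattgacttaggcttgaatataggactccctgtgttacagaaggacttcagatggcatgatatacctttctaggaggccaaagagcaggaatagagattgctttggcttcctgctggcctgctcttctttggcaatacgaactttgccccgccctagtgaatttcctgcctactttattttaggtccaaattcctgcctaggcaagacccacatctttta
The upstream stretches of Ces2a and Ces2c were 63.8% identical, those of Ces2a and Ces2e 53.2%, and those of Ces2c and Ces2e 51.6%, which is less than the coding sequences of each pair. These values come from alignments with gaps. Unrelated upstream stretches were not aligned, so how far the values lie above those of unrelated sequence is not known. Promoters of 300 bases were found in RefSeq for 7 of the 10 members and were searched on both strands, each motif separately. AGGTCA was present in 1 of the 7, Ces2a, and in 16.3% of all 32851 promoters. The other motifs searched were TTGCNNCAA, TTCNNNGAA of STAT factors and CACGTG, the E-box, which were in 0 of the 7 and, in that order, in 2.08%, 8.30% and 7.15% of all promoters. These matches describe letters in this window only.

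**Figure D3:**
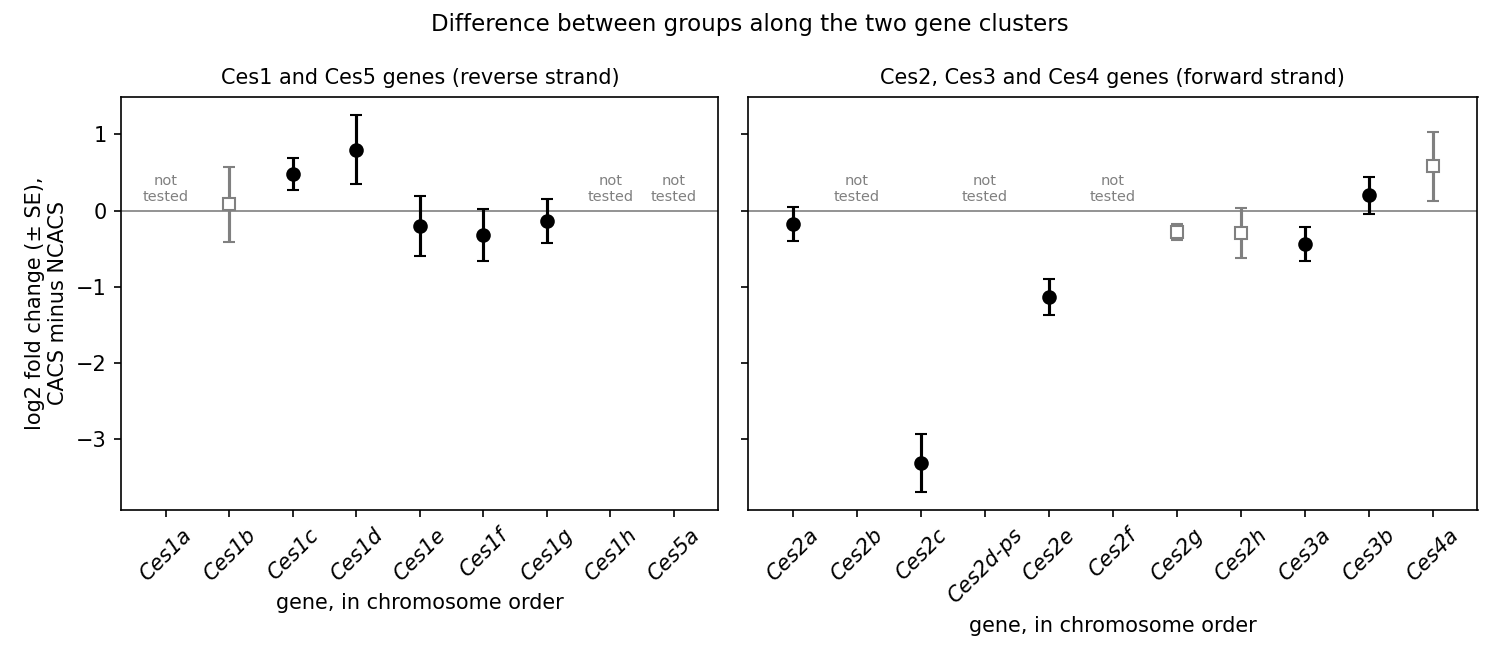
Log2 fold change (CACS minus NCACS, bars are 1 standard error) of the carboxylesterase genes in chromosome order, on the reverse strand (left) and on the forward strand (right). Black circles are the 10 described genes, open squares other family genes, and "not tested" marks genes with too few counts; Ces2c at -3.31 and Ces2e at -1.13 stand below the rest.

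Among the Ces1 enzymes, Ces1c, the carboxylesterase of mouse plasma, was the most abundant. Its levels were 2577, 2338.5, 1505, 3046 and 2245 CPM in NCACS livers and 2756, 2285.5, 3826, 3630 and 3868 CPM in CACS livers. CACS mice 18, 19 and 20 were above all NCACS livers, and CACS mice 16 and 17 were within the NCACS range. The means were 2342 ± 561 and 3273 ± 712 CPM, with a log2 fold change of 0.48 (standard error 0.210). Without NCACS mouse 13 it was 0.36.

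Ces1d, the triacylglycerol hydrolase that mobilises stored lipid for lipoprotein assembly, had the widest spread relative to its mean among CACS livers of the 10 members. It was at 764, 984, 203, 489 and 564 CPM in NCACS livers and at 1158, 490, 2094, 516 and 953 CPM in CACS livers. CACS mice 16 and 18 were above all NCACS livers, and CACS mice 17 and 19 were near the lower NCACS livers. Its log2 fold change of 0.79 (standard error 0.453) became 0.38 without CACS mouse 18.

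Ces1e is egasyn, which holds beta-glucuronidase in the endoplasmic reticulum. It was at 354, 269, 77.8, 500 and 276 CPM in NCACS livers and at 252, 282, 403, 159 and 192 CPM in CACS livers. All 5 CACS livers lay within the NCACS range. The log2 fold change was -0.20 (standard error 0.394), and without NCACS mouse 14 it was 0.08, so its direction rested on that liver.

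Ces1f, a lipid hydrolase of the endoplasmic reticulum, was at 728, 584, 228, 697 and 525 CPM in NCACS livers and at 375, 495, 764, 359 and 218 CPM in CACS livers. The CACS livers spanned the whole NCACS range, with mouse 18 highest and mouse 20 lowest. The log2 fold change was -0.32 (standard error 0.346), and it was -0.61 without CACS mouse 18 and -0.15 without CACS mouse 20.

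Ces1g, a hydrolase linked to liver and plasma lipid levels, was at 306, 254, 94.1, 322 and 240 CPM in NCACS livers and at 242, 270, 228, 137 and 229 CPM in CACS livers. All 5 CACS livers were within the NCACS range, which NCACS mouse 13 opened downwards. The log2 fold change was -0.14 (standard error 0.286), and it was -0.003 without CACS mouse 19.

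Of the Ces3 genes, Ces3a was at 2623, 2334, 2484, 2246 and 3365 CPM in NCACS livers and at 1672, 2147, 2859, 1782 and 1140 CPM in CACS livers. CACS mouse 18 was the single CACS liver above the lowest NCACS liver, and the other 4 lay below it. The means were 2611 ± 446 and 1920 ± 637 CPM, with a log2 fold change of -0.44 (standard error 0.224).

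Ces3b, the near-copy of Ces3a, was at 531, 353, 278, 379 and 515 CPM in NCACS livers and at 335, 476, 619, 633 and 296 CPM in CACS livers. CACS mice 18 and 19 were above all NCACS livers and the others were inside the NCACS range. The log2 fold change was 0.20 (standard error 0.247), with 0.07 without CACS mouse 19 and 0.33 without CACS mouse 20. With all mice the fitted values of the 2 Ces3 genes had opposite signs. Neither was among the members past the adjusted threshold, and nothing is read from that threshold for the members.

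Within the NCACS group, mouse 13 was at the low end for most of the genes. It was the lowest NCACS liver for 9 of the 10 members, all but Ces3a, whereas it was the lowest for 27.0% of all genes tested and the other NCACS livers for 13.9 to 24.7%. Its gap was widest for the Ces1 genes. The next lowest NCACS liver was 3.46-fold higher for Ces1e, 2.55-fold for Ces1g, 2.41-fold for Ces1d, 2.30-fold for Ces1f and 1.49-fold for Ces1c. For Ces3a, mouse 13 at 2484 CPM lay inside its group. The low values were not particular to the carboxylesterases. Among other liver esterases and epoxide hydrolases, seen afterwards, mouse 13 was also lowest in its group for Aadac, Pon1, Bche, Ephx1, Ephx2, Cmbl, Bphl, Esd and Nceh1. It was not the lowest for Pon2, Pon3, Lypla1 or Lypla2. For Ephx2 it was at 396 CPM, against 848 to 1265 CPM in the other NCACS livers. Over all genes tested, the median log2 ratio of mouse 13 to the median of the other NCACS livers was -0.02, and its depth of 31945328 counts was within the range of the livers. Without mouse 13, the log2 fold changes became -0.44 for Ces1e, -0.34 for Ces1g and -0.33 for Ces2a. Among CACS livers, mouse 18 was the highest for Ces1d, Ces1e, Ces1f, Ces2e and Ces3a, and mouse 20 was the lowest for Ces1f, Ces2e, Ces3a and Ces3b.

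**Figure D4:**
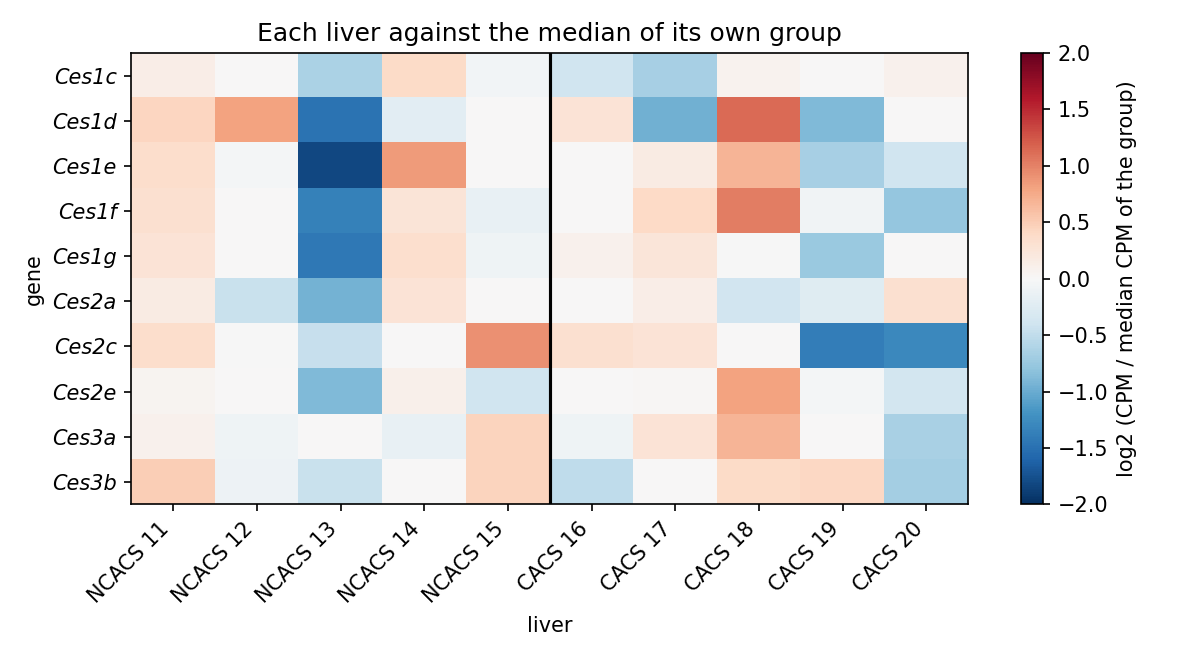
Log2 ratio of each liver to the median CPM of its own group (colour, clipped at 2 in either direction) for the 10 genes; the black line separates NCACS from CACS livers. NCACS 13 is the lowest of its group for 9 genes and at the median for Ces3a, and CACS 18 is the highest of its group for 5.

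Weight change within each group was compared with the members' levels, since that measure was not used to choose them. The 10 slopes of log2 CPM on percent weight change, fitted with a mean for each group, were tested by exact permutation of the weight changes within groups (14400 pairings, two-sided). With all mice and TMM factors, no slope had an unadjusted p under 0.05. Ces3a had the smallest value, with a slope of -0.05 log2 CPM per percent (exact permutation p = 0.0561), and Ces2a followed with 0.06 (exact permutation p = 0.212). Without NCACS mouse 15 the Ces2a slope was 0.14 (exact permutation p = 0.00903). Without CACS mouse 16 or 17 the Ces3a slope was -0.06 in both cases (exact permutation p = 0.0479 and 0.0208). With RLE factors and all mice, the Ces3a slope was -0.05 (exact permutation p = 0.0483). These p-values are unadjusted, and each belongs to 1 of 10 slopes in its fit. After Benjamini-Hochberg adjustment over the members, no slope was under 0.05 with all mice or with 1 mouse left out. The adjusted values with all mice and TMM factors were 0.561 for Ces3a and 0.738 for Ces2a. For Ces2c the slope with all mice and TMM factors was -0.05 (exact permutation p = 0.366). The CACS weight changes span only -33 to -29%, so the slopes rest mainly on the NCACS mice.

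Of the 10 other carboxylesterase genes in the annotation, 4 had enough counts to be tested and none passed the adjusted threshold with edgeR, DESeq2 or limma-voom, while 1 had an unadjusted p under 0.05, as did 21.6% of all genes tested. Ces1b, beside Ces1c, ranged from 80.7 to 498 CPM among NCACS and from 132 to 543 CPM among CACS livers. Its group means were 252 ± 167 and 266 ± 169 CPM, and the groups did not separate (log2 fold change 0.08, adjusted p = 0.946 from edgeR). Ces2g was at 46.5, 48.7, 43.6, 55.4 and 44.2 CPM in NCACS livers and 37.1, 37.0, 45.8, 33.97 and 41.9 CPM in CACS livers, with an overlap through CACS mouse 18. It did not pass, with a difference of -0.28 on the log2 scale (standard error 0.103, adjusted p = 0.136 from edgeR). Ces2h, at 0.740 ± 0.249 and 0.602 ± 0.252 CPM, and Ces4a, at 0.906 ± 0.591 and 1.36 ± 0.579 CPM, also overlapped between groups (log2 fold changes -0.30 and 0.58, adjusted p = 0.652 and 0.489 from edgeR). The other 6, Ces1a, Ces1h, Ces2b, Ces2d-ps, Ces2f and Ces5a, had too few counts.

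Of these low genes, Ces2b and Ces2d-ps flank Ces2c on the chromosome, and they are described here after their values were seen. Ces2b held 8, 16, 3, 8 and 59 counts in NCACS and 0, 1, 2, 3 and 0 counts in CACS libraries. Most of the 94 NCACS counts came from mouse 15, the liver in which Ces2c was also highest. Ces2d-ps held 23, 18, 10, 12 and 4 counts in NCACS and 2, 5, 4, 0 and 0 counts in CACS libraries, and 57.0% of its 100-base stretches occur in other genes. Without the filter, the fitted log2 fold changes were -3.91 for Ces2b (adjusted p = 0.0474 from edgeR) and -2.59 for Ces2d-ps (adjusted p = 0.0818 from edgeR). At these depths a few reads set the values.

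The partners of the endoplasmic reticulum were tested as 4 genes, none of which passed the adjusted threshold with edgeR, DESeq2 or limma-voom, and 1 had an unadjusted p under 0.05, near the 21.6% of all genes. Gusb, the beta-glucuronidase that egasyn binds, was at 28.9 ± 3.69 CPM in NCACS livers and at 36.7 ± 5.45 CPM with cachexia (log2 fold change 0.34, adjusted p = 0.133 from edgeR). The retention receptors had log2 fold changes of -0.11 for Kdelr1, 0.05 for Kdelr2 and -0.18 for Kdelr3, with adjusted p-values of 0.530, 0.836 and 0.844 from edgeR.

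Among 13 other liver esterases and epoxide hydrolases, 11 had lower and 2 higher fitted levels, with a median of -0.15. Of these, 1 passed, against 3.80% of all genes tested, and 2 had an unadjusted p under 0.05 (15.4%, against 21.6% of all genes). Pon3, a lactonase carried on lipoproteins, was at 72.7, 64.7, 67.2, 68.5 and 79.5 CPM in NCACS livers and at 52.4, 50.3, 63.4, 49.6 and 44.1 CPM in CACS livers. All CACS livers were below all NCACS livers, mouse 18 by the least. Pon3 fell by 0.44 on the log2 scale (standard error 0.104, adjusted p = 0.0407 from edgeR), a call lost in 9 of the 10 fits with 1 mouse left out.

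Genes that act on the same lipids were examined as 2 lists. Of 12 lipases and their cofactors, 0 passed with edgeR or limma-voom and 3 had an unadjusted p under 0.05 (25.0%, against 21.6% of all genes), with a median log2 fold change of -0.03. DESeq2, which called 9.8% of all genes tested, called 3 of them (Daglb, Ddhd2 and Lipa). Ddhd2, a phospholipase and triacylglycerol lipase, had the smallest p, at 21.4 ± 5.11 CPM in NCACS livers and at 34.2 ± 6.43 CPM with cachexia (log2 fold change 0.67, adjusted p = 0.0597 from edgeR), and its groups did not overlap. Of 11 genes of very-low-density lipoprotein assembly, 0 passed with edgeR or limma-voom, 2 had an unadjusted p under 0.05 (18.2%, against 21.6% of all genes) and DESeq2 called 1, with a median of -0.09. Dgat1, which makes triacylglycerol, was the gene with the smallest p, at 22.8 ± 1.76 and 30.03 ± 4.62 CPM (log2 fold change 0.40, adjusted p = 0.0713 from edgeR).

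Of 19 transcription factors and nuclear receptors known in liver gene control, 11 had higher and 8 lower fitted levels, with a median of 0.06. Of these, 2 passed, both higher, against 3.80% of all genes tested. An unadjusted p under 0.05 was found for 7 (36.8%, against 21.6% of all genes). Hnf4a, a nuclear receptor that maintains hepatocyte expression, was at 632, 636, 637, 568 and 688 CPM in NCACS livers and at 908, 826, 729, 1007 and 988 CPM in CACS livers. All CACS livers were above all NCACS livers. Hnf4a rose by 0.50 on the log2 scale (standard error 0.120, adjusted p = 0.0435 from edgeR), a call lost in 9 of the 10 fits with 1 mouse left out. Cux2, a repressor with female-biased expression in mouse liver, was at 0.466 ± 0.164 CPM in NCACS livers, while CACS mice 16, 18 and 20 were at 30.6, 17.3 and 53.4 CPM and CACS mice 17 and 19 at 0.551 and 0.817 CPM. CACS livers were thus split, with 3 high and the other two near the NCACS level (log2 fold change 5.44, standard error 1.14, adjusted p = 0.0298 from edgeR), and the call was lost in 7 of the 10 such fits and with limma-voom (3.82, adjusted p = 0.320). Nr1i2 and Nr1i3 encode the xenobiotic receptors PXR and CAR, known regulators of carboxylesterase genes, and are named after their values were seen. Nr1i2 was at 76.7 ± 17.7 and 114 ± 22.3 CPM, and its log2 fold change was 0.58 (adjusted p = 0.0916 from edgeR). Nr1i3 was at 62.7 ± 19.3 and 104 ± 34.1 CPM, and its log2 fold change was 0.72 (adjusted p = 0.134 from edgeR). Neither passed with edgeR, and DESeq2 called Nr1i2 (adjusted p = 0.0361).

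The livers matched their label by hepatocyte markers, all 10 of which were detected, with a summed level of 77071 to 123610 CPM in NCACS livers and 115700 to 141060 CPM in CACS livers. Markers of Kupffer cells, the macrophages of the liver, were all detected (8 of 8), and all 8 had lower fitted levels with cachexia, 1 of them past the threshold (Cd5l), with a median log2 fold change of -0.61. Their sums were 190 to 326 CPM in NCACS livers and 117 to 242 CPM in CACS livers. Leukocyte markers summed to 10.2 to 30.3 and 6.66 to 14.4 CPM (8 of 8 detected), and the 6 tested had lower fitted levels, with a median of -1.27, 5 at an unadjusted p under 0.05 and none past the adjusted threshold in edgeR. In the same order, cholangiocyte markers summed to 33.6 to 52.8 and 20.3 to 49.7 CPM (6 of 6). Endothelial markers summed to 130 to 184 and 162 to 212 CPM (6 of 6), stellate cell markers to 146 to 251 and 158 to 245 CPM (7 of 7), adipocyte markers to 3.88 to 12.5 and 7.22 to 14.8 CPM (6 of 6), and lung epithelial markers to 1.63 to 5.75 and 1.83 to 8.72 CPM (5 of 5). Of these, the surfactant gene Sftpa1 passed the threshold, higher in CACS livers (log2 fold change 1.27, adjusted p = 0.0323 from edgeR). Markers with 0 counts in at least 1 liver were Cftr of cholangiocytes, Ly6g of leukocytes, Plin1 and Lep of adipocytes, and Sftpc, Sftpb, Scgb1a1 and Nkx2-1 of lung epithelium. The part of these cell types in the carboxylesterase values was not tested.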

How the data were processed

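Livers of 5 NCACS and 5 CACS mice were measured by RNA-seq of stranded poly(A) libraries. The authors aligned single-end reads to GRCm38 with STAR 2.4.1d, counted them per gene with HTSeq 0.6.1 and deposited raw counts. The strand setting and annotation release are not given in the sources used here. Groups, mouse numbers and weight changes came from the labels. The full genotype of the mice is not reported here. GENCODE M21 gave symbols and coordinates for 42548 of the 43629 identifiers. The members and gene lists were chosen with earlier results of these data known.

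Counts were tested in R 4.3.3 with edgeR 4.0.16 (filterByExpr, TMM, quasi-likelihood, Benjamini-Hochberg over all genes tested, threshold 0.05). Alternatives used DESeq2 1.42.0, limma 3.58.1 (voom), other scaling, other filters and leaving out each mouse. The slopes used log2 CPM with a prior count of 2. Levels per kilobase used merged exons. No duplicated libraries were found within a group (smallest chi-square per degree of freedom 50.7). The scripts were tested on simulated data. Besides the 10 members, every tested carboxylesterase and partner was named, and from each other list the genes past the threshold or, with none, the gene of smallest p. Among the members, counting error matters mainly for Ces2c, with 19 to 70 counts in CACS livers.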

Additional observations from a re-analysis of the deposited data

Results flagged for a closer look

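Within each group of 5 livers, a liver was singled out when its gap to the next liver took more than 0.71 of the group's range in log2 CPM. Chance gives this in about 1 of 20 groups, and 4 of 50 groups tested had it. For Ces1f and Ces1g, NCACS mouse 13 was low, with gaps of 0.718 and 0.762 of the range. For Ces1g, CACS mouse 19 was low, with a gap of 0.752. For Kdelr1, CACS mouse 18 was high, with a gap of 0.767.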

How the results depend on the processing

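Ces2c and Ces2e were past the threshold, both lower, with each other tool (DESeq2, limma-voom), scaling (RLE, upper quartile, raw totals) and filter (none, or at least 10 counts in every liver). In these settings 1.58% (no filter) to 9.8% (DESeq2) of all genes tested passed. The settings reuse the same livers, and the members were chosen with this contrast known, so nothing is read from these calls. With 1 mouse left out, 1 to 2 members and 178 to 519 of all genes passed (1.24 to 3.64% of those tested), against 538 (3.8%) with all mice and 1386 (9.8%) with DESeq2. Lipases had 0 to 1, other esterases 0 to 1 and regulators 0 to 2 genes past the threshold with 1 mouse left out, and the other carboxylesterases, partners, lipoprotein genes and slopes 0. DESeq2 called 3 lipases, 1 lipoprotein gene and 4 regulators. Regulators called were 1 under limma-voom (Hnf4a), without the filter (Cux2), and with at least 10 counts in every liver (Hnf4a; Cux2 was not tested there). Without the filter 1 other carboxylesterase and 0 other esterases passed.

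Direction changed for Ces1e without NCACS mouse 14 (0.0766, range with 1 mouse left out -0.44 to 0.0766), Ces1b without NCACS mouse 13, 14 or 15 or CACS mouse 17 (-0.01, -0.05, -0.14 and -0.35; range -0.35 to 0.49), Kdelr2 without NCACS mouse 15 (-0.002; range -0.002 to 0.14) and Kdelr3 without NCACS mouse 12 (0.0927; range -0.40 to 0.0927). Slopes on weight change of 3 members also changed sign. With 1 mouse left out, that of Ces1d ranged from -0.0596 to 0.0394, of Ces3b from -0.0312 to 0.0430 and of Ces2c from -0.0882 to 0.00422, and with raw library totals those of Ces1d and Ces3b were 0.00438 and 0.000544. The cause was not tested.

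Per kilobase of the longest transcript instead of merged exons, mean levels over all livers rose from 1209 to 1536 CPM for Ces1c, from 151 to 258 for Ces1f and from 862 to 1107 for Ces3a. With 1 mouse left out, mean levels ranged from 1158 to 1271 CPM per kilobase for Ces1c, 287 to 376 for Ces1d, 115 to 136 for Ces1e, 142 to 161 for Ces1f, 93.1 to 104 for Ces1g, 157 to 172 for Ces2a, 2.24 to 3.13 for Ces2c, 45.4 to 52.1 for Ces2e, 816 to 910 for Ces3a and 164 to 179 for Ces3b. No paired analysis was possible because no mouse number occurs in both groups. Depth limits Ces2b and Ces2d-ps, with at most 5 counts in any CACS liver.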
